A study of Mus musculus with 9 samples.

Results

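The genes described here encode the subunits of the hypoxia-inducible factors (HIFs) and the enzymes that report oxygen to them. They are the alpha subunit genes *Hif1a* and *Epas1*, their common partner *Arnt*, the prolyl hydroxylase genes *Egln1*, *Egln2* and *Egln3*, the asparaginyl hydroxylase gene *Hif1an*, and *Vhl*. The 8 genes were chosen by name for these roles, and all 8 were among the 14108 genes counted and the 14086 genes tested. RNA was sequenced from 9 tumours of 3 breast cancer models (HR1, LM1 and LM9, n = 3 each). HR1 is a non-metastatic line from a mammary tumour of a mouse that carried PIK3CA with the H1047R change under the CAG promoter. LM1 and LM9 are lines grown out of lung metastases that formed after *piggyBac* mutagenesis of HR1 cells with a doxycycline-inducible transposase, so each model is 1 cell line and its 3 tumours do not stand for 3 separate metastases. For every tumour 250000 cells in Matrigel and PBS were injected into the mammary fat pad of a female NOD/SCID mouse (spelled NOD.CB17-Prkcd<scid>/J in the labels, although scid is an allele of *Prkdc*, and aged 4 to 8 weeks), the tumour was taken out before 1500 mm3, and GFP+ cells were sorted. The study asked what drives metastatic colonization, with *Nfib* as its main candidate and a path from *Ero1l* to stabilized HIF alpha protein and *Vegfa* among its readouts. The counts here measure the mRNA of the sensing genes, not HIF protein.

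When oxygen is plentiful, the prolyl hydroxylases encoded by the *Egln* genes modify the alpha subunits, the VHL protein recognizes the modified form as part of a ubiquitin ligase, and the subunit is degraded. Under low oxygen the alpha subunits escape this, pair with ARNT and switch on genes of glycolysis, blood vessel growth and pH control. *Egln1* and *Egln3* are themselves known HIF targets, while *Hif1an* encodes the enzyme that blocks the coactivator contact of the alpha subunits, again only when oxygen is present. In solid tumours the pathway is commonly active without a change in *Hif1a* mRNA, because its main control is at the level of protein.

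Total counts on genes lay between 32393958 and 46681945 per tumour, and the lowest count of any of the 8 genes was 109 reads, for *Epas1* in HR1 replicate 1. Values are CPM (counts scaled to the library size) after TMM normalization, or CPM per kilobase of exon (CPM per kb) where genes are compared with each other. The tumour labelled HR1 replicate 1 stood apart from the other HR1 tumours, with a correlation of log2 CPM over genes of 0.878 and 0.891 with them, against 0.961 between the other two. It had 1343 CPM of *Nfib*, where HR1 replicates 2 and 3 had 23.9 and 18.3 CPM and the LM tumours between 421 and 791 CPM. This tumour was kept under its label, and values without it are given for the 8 genes, the lists of pathway genes and the genes near *Vhl*. The labelled mammary cancer cells had *Vim*, a mesenchymal gene, at 7344 CPM or more in each tumour, whereas the epithelial genes *Epcam*, *Cdh1* and *Krt18* stayed at or below 4.49 CPM. *Epcam* was called lower in LM1 versus HR1 (0.167 ± 0.128 against 2.17 ± 2.09 CPM, s.d., n = 3, edgeR adjusted p = 0.0164). The basal keratin gene *Krt5* was called lower in LM9 than in both other models, with 3.79 ± 5.95 CPM in HR1, 0.976 ± 0.127 CPM in LM1 and 0.00763 ± 0.0132 CPM in LM9 (s.d., n = 3, edgeR adjusted p = 0.00943 and 0.043). *Krt14* had 47.3 ± 55.4, 167 ± 13.2 and 13.9 ± 1.58 CPM and was called lower in LM9 than in LM1 (edgeR adjusted p = 0.0429). So was *Krt18* (log2 fold change −5.50, edgeR adjusted p = 0.014), while *Vim* was called higher in LM9 versus HR1 (0.53, edgeR adjusted p = 0.0179). Of these 6 markers, 1 was called lower and none higher in LM1 versus HR1 (18.7% and 16.7% of all genes). In LM9 versus HR1, 1 was called lower and 1 higher (21.9% and 20.4%). In LM9 versus LM1, 3 were called lower and none higher (10.6% and 11.5%). Of the other cell types, 6 of 8 leukocyte markers, 6 of 7 endothelial markers, 7 of 7 fibroblast markers and 2 of 3 erythroid markers were among the counts, and none was at 0 in all tumours of a model. Summed leukocyte markers lay between 119 and 508 CPM in HR1, 81.2 and 86.5 CPM in LM1 and 156 and 184 CPM in LM9. Of the 6 leukocyte markers 4 were called lower and none higher in LM1 versus HR1 (median log2 fold change −1.63, against −0.04 over all genes, of which 18.7% were called lower), and likewise 4 and none in LM9 versus HR1 (median −1.98, against −0.05 and 21.9%), with *Lyz2* falling most in LM9 (−2.96, edgeR adjusted p = 0.00366). The larger sum in LM9 than in LM1 rested on *Cd68*, the only leukocyte marker called between them (log2 fold change 2.89, edgeR adjusted p = 0.00726), while the median of the 6 markers was −0.39. Summed endothelial markers lay between 5.84 and 27.9 CPM in HR1, 163 and 227 CPM in LM1 and 252 and 290.4 CPM in LM9. This was *Cdh5* and *Kdr*, while *Pecam1*, *Tie1*, *Emcn* and *Vwf* were at or below 1.25 CPM in each LM tumour. Both *Cdh5* and *Kdr* were called higher in LM1 versus HR1 and in LM9 versus HR1. The other 4, with means between 1.17 and 3.28 CPM in HR1, were not called in LM1 versus HR1, while 3 of them, all but *Vwf*, were called lower in LM9 versus HR1 and all 4 with LM1 and LM9 pooled against HR1 (23.6% of all genes were called lower). Summed fibroblast markers, which include collagen genes that mesenchymal tumour cells also express, lay between 22040 and 35160 CPM in HR1 and 8971 and 13780 CPM in the LM tumours. Summed erythroid markers lay between 19.0 and 166 CPM in HR1 and 4.78 and 44.9 CPM in the LM tumours. The part of these cells in the values below was not tested, and in sorted bulk samples fewer cells of a type and less RNA per cell cannot be told apart.

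Upstream sequence is shown for the 3 genes that differed between LM1 and LM9 together and HR1, because HIF binds the core motifs ACGTG and GCGTG and a reader may want to see where these letters lie. The 250 bases before the RefSeq start (GRCm38.p6, 5′ to 3′ on the gene's strand) are given without annotated exon bases, which took 70 bases of the *Egln1* window and none of the others. Capitals mark either motif on either strand.
Hif1a, chr12:73907617-73907866, plus strand: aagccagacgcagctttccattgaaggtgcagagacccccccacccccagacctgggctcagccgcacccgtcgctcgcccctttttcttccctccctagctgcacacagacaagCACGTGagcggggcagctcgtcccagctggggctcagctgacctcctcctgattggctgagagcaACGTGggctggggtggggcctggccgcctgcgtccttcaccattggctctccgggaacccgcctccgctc
Egln1, chr8:124949325-124949504, minus strand: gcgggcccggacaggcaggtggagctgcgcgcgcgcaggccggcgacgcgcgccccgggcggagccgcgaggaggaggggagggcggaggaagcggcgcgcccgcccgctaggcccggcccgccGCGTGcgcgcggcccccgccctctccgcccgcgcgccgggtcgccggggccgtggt
Egln3, chr12:54203875-54204124, minus strand: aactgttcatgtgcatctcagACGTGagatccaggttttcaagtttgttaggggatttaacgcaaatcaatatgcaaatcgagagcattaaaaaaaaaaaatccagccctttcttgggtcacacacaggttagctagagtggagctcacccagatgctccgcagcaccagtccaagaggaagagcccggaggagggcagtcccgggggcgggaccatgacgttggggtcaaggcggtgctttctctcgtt
The *Hif1a* window lies within the gene's annotated span but outside its exons. It held the motif at 2 places, of which CACGTG is its own reverse complement and reads as ACGTG on both strands. The *Egln1* window held 1 GCGTG in the stretch shown and 1 ACGTG among its exon bases, and the *Egln3* window held 1 ACGTG. Promoters were given for 7 of the 8 genes, *Epas1* being without one, and 5 of these 7 held either motif, *Arnt* with 1 GCGTG and *Egln2* at both of its starts. No match was in the *Vhl* and *Hif1an* windows. Among 32851 RefSeq promoters of this length, 16.6% held ACGTG, 28.2% held GCGTG and 38.6% held either, so a match is common and says nothing of binding.

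*Egln3* had the highest level per kb of the 8 genes in the mean of each model and *Epas1* the lowest. In HR1 tumours the mean level was 61.0 ± 28.3 CPM per kb (s.d., n = 3) for *Egln3* and 0.768 CPM per kb for *Epas1*. *Egln1* (32.3), *Vhl* (24.0), *Egln2* (20.4) and *Hif1a* (17.0 CPM per kb) lay between them in HR1, and the tumour ranges of these neighbours overlapped, as did those of *Egln3* and *Egln1*. *Arnt* at 9.09 and *Hif1an* at 5.22 CPM per kb followed without overlap. In LM1 tumours *Hif1a* came after *Egln3*, at 54.6 ± 5.61 CPM per kb (s.d., n = 3), with *Egln3* at 178 and *Egln1* at 46.1 CPM per kb, with only *Egln2* and *Vhl* overlapping. In LM9 tumours *Egln1* was second at 69.6 ± 6.98 followed by *Hif1a* at 42.8 ± 2.51 CPM per kb (s.d., n = 3), and no neighbours overlapped.

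**Figure D1:**
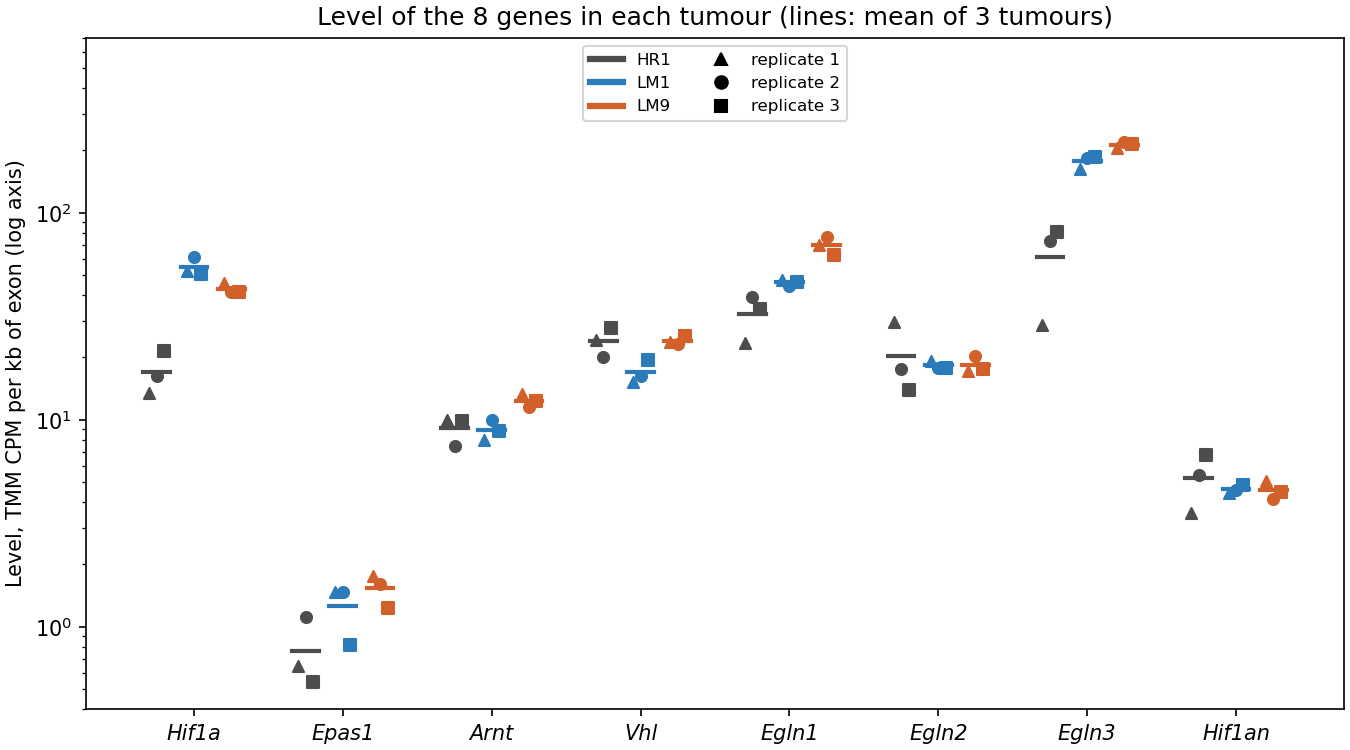
Level of each gene in CPM per kb of exon on a log axis, with 1 symbol per tumour (triangle, circle and square for replicates 1, 2 and 3) and a line at the mean of 3 tumours for HR1, LM1 and LM9. The LM tumours lie above all HR1 tumours for *Hif1a*, *Egln1* and *Egln3*, and the triangle of HR1 replicate 1 is the lowest of all tumours for these genes and the highest for *Egln2*.

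The question for each comparison was whether mRNA of the sensing genes differed between the metastasis-derived models and HR1, and between the 2 metastasis-derived models. With LM1 and LM9 pooled against HR1, 3 of the 8 genes were called (adjusted p under 0.05 in edgeR's quasi-likelihood fit, Benjamini-Hochberg adjustment over all tested genes), against 43.6% of all genes tested. These were *Hif1a*, *Egln1* and *Egln3*, all higher, where 19.9% of all genes were called higher and 23.6% lower. They were also the only 3 of the 8 whose LM and HR1 tumours did not overlap, which held for 29.9% of all genes. In LM1 versus HR1 the same test called 3 of 8 against 35.5% of all genes, with *Hif1a* and *Egln3* higher (16.7% of all genes) and *Vhl* lower (18.7%). In LM9 versus HR1 it called 5 of 8 against 42.3%, all higher (20.4% of all genes) and none lower (21.9%), which added *Arnt* and *Epas1* to *Hif1a*, *Egln1* and *Egln3*. In LM9 versus LM1 it called 1 of 8 against 22.0%, which was *Vhl*, higher in LM9 (11.5% of all genes were called higher and 10.6% lower). The tumours of the 2 models did not overlap for 4 of 8 genes in LM1 versus HR1 (45.6% of all genes), 5 of 8 in LM9 versus HR1 (53.3%) and 5 of 8 in LM9 versus LM1 (63.0%). The shares of called genes among the 8 were thus close to or below those of all genes except in LM9 versus HR1. There *Arnt* and *Epas1* lay near the threshold (edgeR adjusted p = 0.0437 and 0.0499). In a fit to the 6 HR1 and LM9 tumours alone, 3 of 8 were called, against 31.2% of all genes. With 8 genes a difference of 1 gene moves the share widely. The comparisons with HR1 share its 3 tumours and are not independent of each other.

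**Figure D2:**
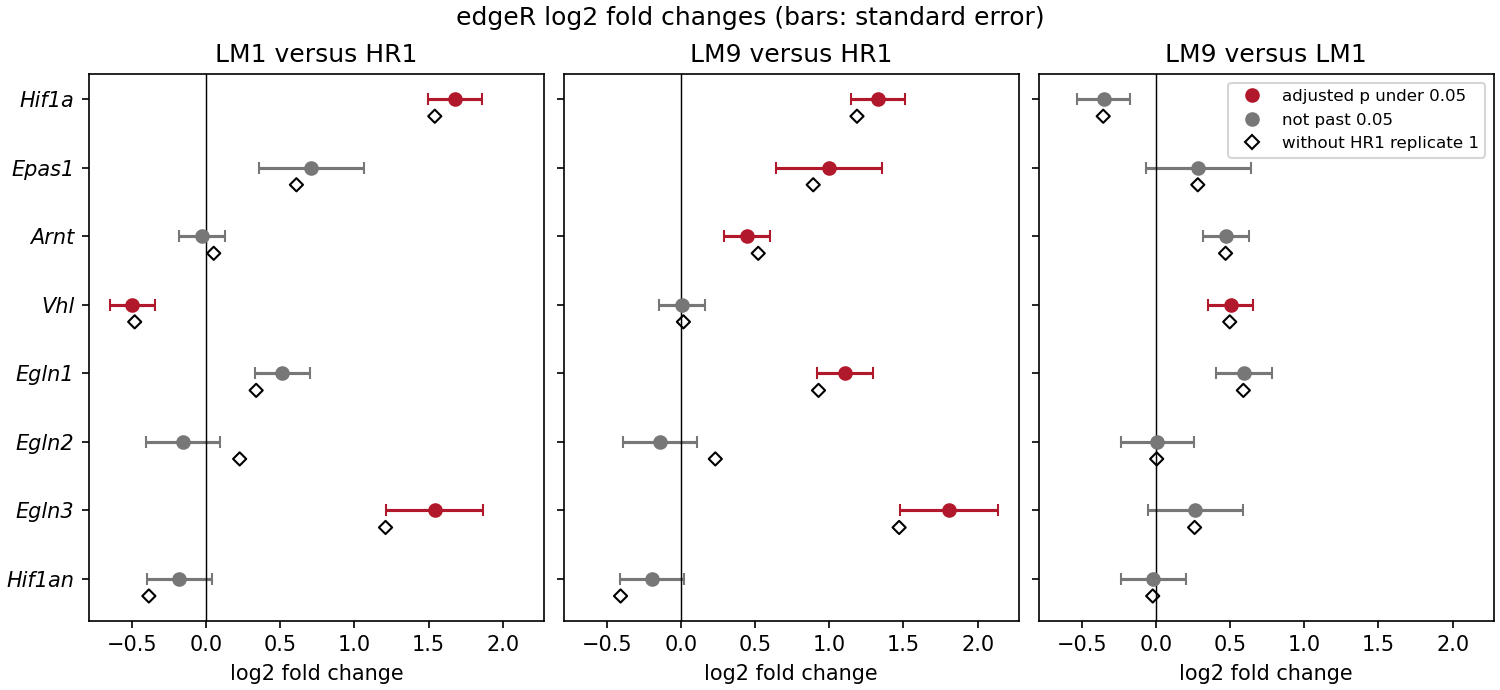
The edgeR log2 fold change of each gene in 3 comparisons, with bars for the standard error, red for an adjusted p under 0.05, grey otherwise, and an open diamond for the value without HR1 replicate 1. *Hif1a* and *Egln3* lie above 1 in both comparisons with HR1 and remain there without that tumour, whereas *Egln2* changes sign without it.

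*Hif1a* (chromosome 12 of GRCm38, 73901375 to 73947530, plus strand) encodes the alpha subunit that most cells use in acute hypoxia, and its mRNA was higher in both LM models. HR1 replicates 1, 2 and 3 had 79.4, 96.0 and 126 CPM. The LM1 tumours had 309, 359 and 297 CPM and the LM9 tumours 269, 243 and 244 CPM. Each LM tumour lay above the highest HR1 tumour, and each LM1 tumour above the highest LM9 tumour. The level was 3.20-fold higher in LM1 than in HR1 (log2 fold change 1.68, standard error 0.18, edgeR adjusted p = 0.00039) and 2.51-fold higher in LM9 (1.33, standard error 0.18, edgeR adjusted p = 0.000882). Both were called under each of 17 alternative analyses, and without HR1 replicate 1 the log2 fold changes were 1.54 and 1.19. Between LM9 and LM1 the log2 fold change was −0.35 (standard error 0.18, edgeR adjusted p = 0.185), although the tumours did not overlap. In a fit to the 6 LM tumours alone it was −0.36 with an adjusted p of 0.0143 by the same edgeR test. Exons of the annotated genes Gm15283 (opposite strand) and Gm49321 (same strand) overlap 5.6% and 2.5% of the *Hif1a* exon bases, and how reads there were assigned was not stated.

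*Epas1* (chromosome 17, 86753700 to 86833410, plus strand) encodes the alpha subunit best known from endothelium, kidney and chronic hypoxia, and it was the least abundant of the 8 genes. The HR1 tumours had 3.62, 6.24 and 3.01 CPM. The LM1 tumours had 8.28, 8.22 and 4.57 CPM and the LM9 tumours 9.81, 9.02 and 6.89 CPM. LM9 tumours lay above all HR1 tumours, while LM1 replicate 3 lay below HR1 replicate 2. Its log2 fold change was 1.00 in LM9 versus HR1 (standard error 0.36, edgeR adjusted p = 0.0499) and 0.71 in LM1 versus HR1 (standard error 0.35, edgeR adjusted p = 0.149). The LM9 call held in 6 of 17 alternatives. It was lost when any of 7 of the 9 tumours was left out, with adjusted p up to 0.145, and of these fits held only in those without HR1 replicate 2 or LM1 replicate 3. For LM1 a call appeared without HR1 replicate 2 (1.08, edgeR adjusted p = 0.0408). *Hif1a* exceeded *Epas1* per kb 25.04 ± 13.1 times in HR1, 46.1 ± 13.7 times in LM1 and 28.4 ± 4.51 times in LM9 (mean ± s.d., n = 3 each). No difference in the log2 of this ratio passed 0.05 in two-sided exact permutation tests, with p = 0.143 for 6 LM against 3 HR1 tumours (0.0238 is the smallest possible) and p = 0.1 for LM9 against LM1, the smallest that 3 against 3 tumours allow.

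*Arnt* (chromosome 3, 95434388 to 95497240, plus strand) encodes the constitutive partner of both alpha subunits. Its level was 79.8, 59.8 and 78.8 CPM in the HR1 tumours, 63.6, 79.6 and 71.0 CPM in LM1 and 106, 92.6 and 98.6 CPM in LM9. LM9 tumours lay above all the others, and HR1 and LM1 tumours overlapped. The log2 fold change was 0.45 in LM9 versus HR1 (standard error 0.15, edgeR adjusted p = 0.0437), −0.03 in LM1 versus HR1 (edgeR adjusted p = 0.903) and 0.47 in LM9 versus LM1 (edgeR adjusted p = 0.0558). The first call held in 8 of 17 alternatives and was lost without any of 7 of the 9 tumours, with adjusted p up to 0.138, and held without HR1 replicate 1 or 3. The third was gained without HR1 replicate 1 (0.47, edgeR adjusted p = 0.0197) or HR1 replicate 2 (0.47, edgeR adjusted p = 0.0304). The whole range over the 9 tumours was 1.78-fold, the smallest of the 8 genes.

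*Egln3* (chromosome 12, 54178981 to 54203860, minus strand) encodes the prolyl hydroxylase most strongly induced by HIF in many cells, and it had the widest range of the 8 genes, 7.63-fold from HR1 replicate 1 to LM9 replicate 2. The HR1 tumours had 76.3, 195 and 216 CPM. The LM1 tumours had 434, 492 and 493 CPM and the LM9 tumours 549, 582 and 574 CPM. All LM tumours lay above all HR1 tumours, and HR1 replicate 1 lay well below the other HR1 tumours. *Egln3* was 2.91-fold higher in LM1 than in HR1 (log2 fold change 1.54, standard error 0.33, edgeR adjusted p = 0.00751) and 3.50-fold higher in LM9 (1.81, standard error 0.33, edgeR adjusted p = 0.00329). Both calls held in 17 of 17 alternatives, and without HR1 replicate 1 the log2 fold changes were 1.21 and 1.47. LM9 tumours lay above LM1 tumours, with a log2 fold change of 0.27 (standard error 0.32, edgeR adjusted p = 0.581) that was called in the fit to the 6 LM tumours alone (0.26, edgeR adjusted p = 0.0496).

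*Egln1* (chromosome 8, 124908587 to 124949324, minus strand) encodes the hydroxylase regarded as the main oxygen sensor in normal tissue. The HR1 tumours had 84.6, 140.3 and 124 CPM, the LM1 tumours 171, 159.7 and 167 CPM and the LM9 tumours 251, 275 and 225 CPM. The 3 models formed 3 separate ranges, lowest in HR1 and highest in LM9. The log2 fold change was 1.11 in LM9 versus HR1 (standard error 0.19, edgeR adjusted p = 0.0023), and it was called in 17 of 17 alternatives. The intermediate steps lay near the threshold, with 0.51 for LM1 versus HR1 (standard error 0.19, edgeR adjusted p = 0.0593) and 0.59 for LM9 versus LM1 (standard error 0.19, edgeR adjusted p = 0.0504). Both passed it without HR1 replicate 1 (0.34, edgeR adjusted p = 0.0439, and 0.59, edgeR adjusted p = 0.00229) and without HR1 replicate 2 (0.67, edgeR adjusted p = 0.0275, and 0.59, edgeR adjusted p = 0.0337).

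*Egln2* (chromosome 7, 27158658 to 27166802, minus strand) encodes the prolyl hydroxylase that is not known as a HIF target, and it showed no call in any comparison. The HR1 tumours had 83.0, 49.2 and 38.9 CPM. The LM1 tumours had 54.1, 49.6 and 50.0 CPM and the LM9 tumours 48.3, 57.0 and 49.5 CPM. The 6 LM tumours fell inside the range of the HR1 tumours, of which replicate 1 was the highest of all 9. On the log2 scale *Egln2* differed by −0.15 in LM1 versus HR1 (standard error 0.25, edgeR adjusted p = 0.661) and −0.14 in LM9 versus HR1 (standard error 0.25, edgeR adjusted p = 0.667). Without HR1 replicate 1 the values turned to 0.23 in both (edgeR adjusted p = 0.194 and 0.178).

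*Egln3* had a larger share among the 3 prolyl hydroxylase genes in each LM tumour than in any HR1 tumour. Their summed level was 114 ± 27.6 CPM per kb in HR1, 242 ± 10.7 in LM1 and 302 ± 12.3 CPM per kb in LM9 (s.d., n = 3 each). *Egln3* made up 35.0%, 56.4% and 62.7% of this sum in HR1 replicates 1, 2 and 3. It made up 70.9% to 74.8% in LM1 and 69.3% to 72.9% in LM9. The *Egln1* share was 28.5 ± 1.76% in HR1, 19.1 ± 1.39% in LM1 and 23.1 ± 1.68% in LM9 (s.d., n = 3), although its own level was higher in the LM tumours. The *Egln2* share was 20.2 ± 14.0%, 7.58 ± 0.717% and 6.1 ± 0.307%. For each of the 3 shares the two-sided exact permutation test of 6 LM against 3 HR1 tumours gave p = 0.0238, the smallest possible, and 0.127 after Benjamini-Hochberg adjustment over the 16 tests of shares and ratios, so none passed 0.05. With 3 against 3 tumours the smallest exact p is 0.1, which the comparisons of each LM model with HR1 reached. Without HR1 replicate 1 the *Egln3* share still differed by 12.5 percentage points between LM and HR1 tumours, against 20.7 with it, and the *Egln2* share by −5.29 points against −13.3.

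**Figure D3:**
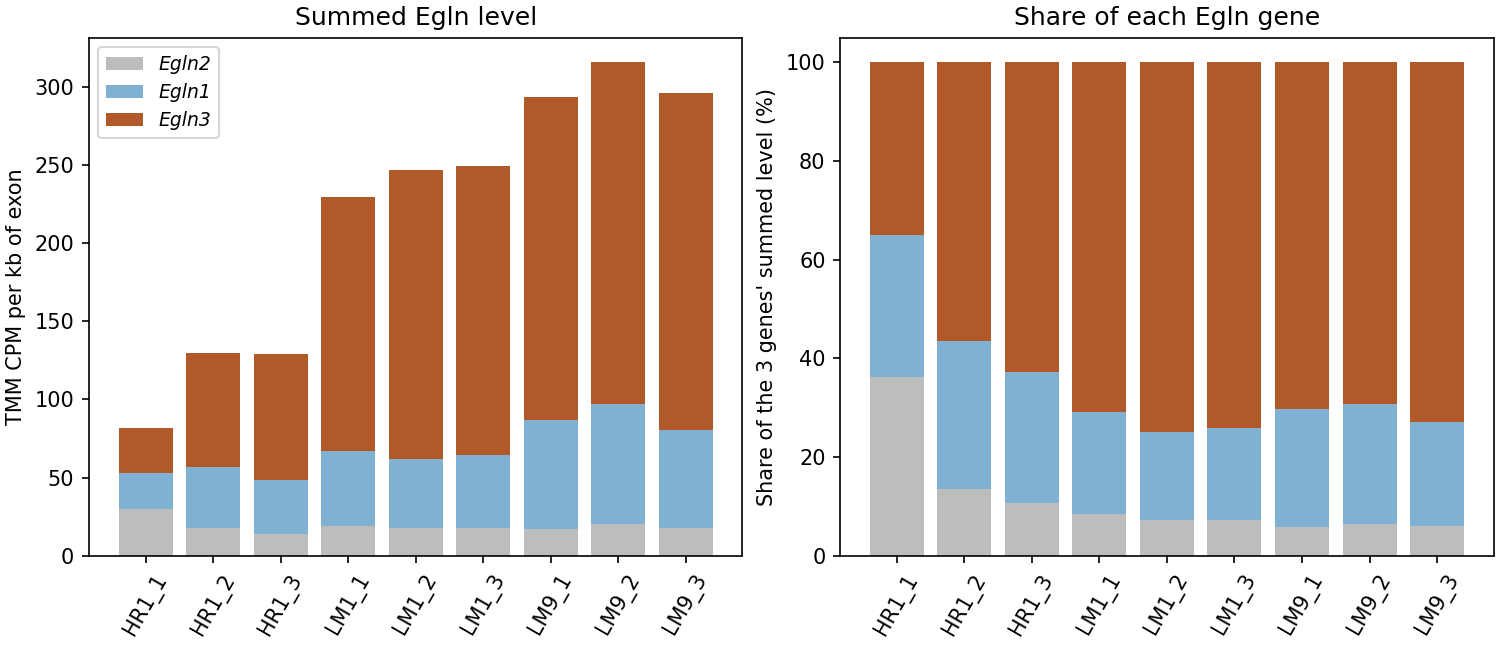
Left, level of *Egln1*, *Egln2* and *Egln3* in CPM per kb of exon stacked for each tumour; right, the share of each gene in their sum in percent. *Egln3* takes 69.3% or more in the 6 LM tumours and between 35.0% and 62.7% in the HR1 tumours, with the lowest share in HR1 replicate 1.

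*Hif1an* (chromosome 19, 44562850 to 44576274, plus strand) encodes the asparaginyl hydroxylase. Its level was 23.4, 35.6 and 44.4 CPM in the HR1 tumours, 29.2, 30.1 and 32.1 CPM in LM1 and 33.2, 27.4 and 29.7 CPM in LM9. All LM tumours lay inside the HR1 range, between replicate 1 and replicate 2. On the log2 scale *Hif1an* differed by −0.18 in LM1 versus HR1 (standard error 0.22, edgeR adjusted p = 0.551) and −0.20 in LM9 versus HR1 (standard error 0.22, edgeR adjusted p = 0.491). Without HR1 replicate 1, the lowest of the 9 tumours, it was −0.39 (edgeR adjusted p = 0.0478) and −0.41 (edgeR adjusted p = 0.0369), past the threshold. Leaving out HR1 replicate 3 gave 0.04 and 0.03 instead, so that the sign rested on which HR1 tumours were used.

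Leaving out HR1 replicate 1 also raised the number of calls over all genes. Without it 4 of the 8 genes were called with LM1 and LM9 pooled (56.0% of all genes), 5 in LM1 versus HR1 (52.8%), 5 in LM9 versus HR1 (55.7%) and 3 in LM9 versus LM1 (45.5%). In the fit to the 6 LM tumours alone 5 of 8 were called in LM9 versus LM1, where 56.3% of all genes were. The calls near the threshold thus changed with which HR1 tumours entered the fit, also where HR1 was not part of the comparison.

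*Vhl* (chromosome 6, 113623959 to 113631633, plus strand) encodes the recognition subunit of the ligase that marks hydroxylated alpha subunits for degradation, and it was lower in LM1 than in both other models. The HR1 tumours had 72.8, 60.4 and 82.8 CPM. The LM1 tumours had 45.8, 48.7 and 58.6 CPM and the LM9 tumours 71.3, 69.7 and 75.8 CPM. Each LM1 tumour lay below every HR1 and LM9 tumour, and LM9 tumours lay inside the HR1 range. On the log2 scale *Vhl* differed by −0.50 in LM1 versus HR1 (standard error 0.15, edgeR adjusted p = 0.0339), 0.50 in LM9 versus LM1 (standard error 0.15, edgeR adjusted p = 0.0468) and 0.01 in LM9 versus HR1 (edgeR adjusted p = 0.98). Each call held in 9 of 17 alternatives. The first was lost without any of 6 tumours, HR1 replicate 3, LM1 replicate 1 or 2 or any LM9 tumour (adjusted p up to 0.128), with library size as the only scaling (adjusted p = 0.0608), and in the fit to the HR1 and LM1 tumours alone (−0.51, adjusted p = 0.0956). The second was lost without any of the 6 LM tumours (adjusted p up to 0.168) and under edgeR's RLE size factors (adjusted p = 0.0509) or library size only (adjusted p = 0.0715).

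The genes near *Vhl* on chromosome 6 were counted as well. Of the 24 tested genes within 1 Mb, 13 were called lower, 2 higher and 9 neither in LM1 versus HR1 (median log2 fold change −0.43), where 18.7% of all genes were called lower and 16.7% higher. In LM9 versus LM1, 9 were called higher and 2 lower (median 0.42), where the shares of all genes were 11.5% and 10.6%. The *Vhl* log2 fold changes of −0.50 and 0.50 lay close to these medians. Neighbours with negative values included *Ogg1* (−0.85 in LM1 versus HR1), a DNA glycosylase, and *Brk1* (−0.997), a subunit of the actin-regulating WAVE complex. Another was *Irak2* (−1.87), an interleukin receptor-associated kinase. *Rad18* (0.66) and *Fancd2* (0.55) had positive values in that comparison. On the side of higher coordinates, 10 of 34 genes from 1 to 5 Mb were called lower and 3 higher in LM1 versus HR1 (median −0.24). From 5 to 20 Mb 35 of 117 were called lower and 14 higher (median −0.29). On the other side 1 of 6 and 4 of 24 were called lower, and 1 and 4 higher, with medians of 0.92 and −0.13. Over all 662 tested genes of chromosome 6 the median was −0.26 in LM1 versus HR1, against −0.04 over all genes. It was −0.23 in LM9 versus HR1 too, where *Vhl* differed by 0.01, and chromosomes 16, 17 and 18 had lower medians in LM1 versus HR1 (−0.34, −0.35 and −0.41). When HR1 replicate 1 was left out, 13 of the 24 near genes were called lower and 3 higher in LM1 versus HR1 (median −0.44), where 26.0% of all genes were called lower and 26.9% higher. Then 10 were called higher and 4 lower in LM9 versus LM1 (median 0.41), where the shares of all genes were 22.9% and 22.5%. Gene copy number was not measured, and the part of the region in the *Vhl* values was not tested. Within 1 Mb of *Hif1a*, 2 of 7 genes were called higher and 1 lower in LM1 versus HR1 (median 0.16). In LM9 versus HR1, 1 was called higher and 1 lower (median −0.39), against 20.4% and 21.9% of all genes. In LM9 versus LM1, none was called higher and 2 lower (median −0.27). The *Hif1a* values in these comparisons were 1.68, 1.33 and −0.35. Within 1 Mb of *Egln3* none of 9 was called higher against HR1, where 16.7% of all genes were in LM1 and 20.4% in LM9. Of these 9, 2 were called lower in LM1 (median −0.25, 18.7% of all genes) and 3 in LM9 (median −0.40, 21.9% of all genes). Within 1 Mb of *Egln1*, 5 of 18 were called higher and 3 lower in LM1 versus HR1 (median −0.06), against 16.7% and 18.7% of all genes. In LM9 versus HR1, 1 was called higher and 6 lower (median −0.39), against 20.4% and 21.9% of all genes.

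**Figure D4:**
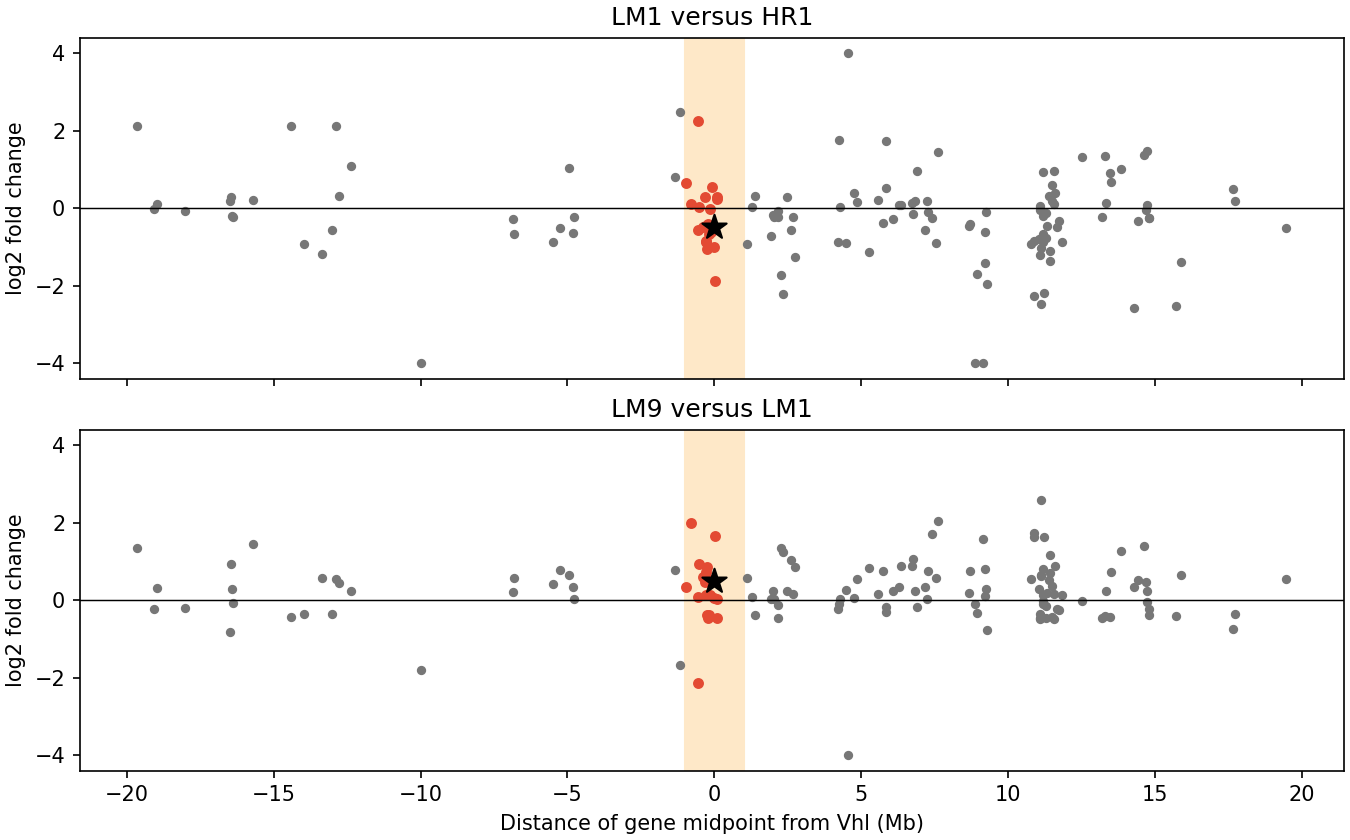
The log2 fold change of 143 genes averaging 5 CPM or more within 20 Mb of *Vhl* against the distance of the gene's midpoint from that of *Vhl* in Mb, for LM1 versus HR1 (top) and LM9 versus LM1 (bottom). The star is *Vhl* (−0.50 and 0.50), red points are the 20 plotted genes within 1 Mb (shaded), and 4 values in the top panel and 1 in the bottom panel are drawn at the limit of 4.

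The partners of VHL in its ligase, elongins B and C, the scaffold CUL2 and the RING protein RBX1, gave 4 tested genes. In LM1 versus HR1, 1 was called lower and none higher, *Cul2* with a log2 fold change of −0.48 (edgeR adjusted p = 0.0334), which lay near that of *Vhl*. Over all genes 18.7% were called lower in that comparison, 21.9% in LM9 versus HR1 and 10.6% in LM9 versus LM1, and with 4 genes 1 call moves the share widely. In LM9 versus HR1 2 of 4 were called lower, with *Elob* falling most (−1.14, edgeR adjusted p = 0.0024), and in LM9 versus LM1 2 were, with *Eloc* falling most (−0.81, edgeR adjusted p = 0.00525). The medians of the 4 genes were −0.14, −0.31 and −0.51 in these comparisons, against −0.04, −0.05 and 0.00 over all genes. Leaving out HR1 replicate 1, 1 of the 4 was called lower in LM1 versus HR1 (26.0% of all genes), 3 in LM9 versus HR1 (27.8%) and 2 in LM9 versus LM1 (22.5%), where 1, *Cul2*, was called higher (0.30, edgeR adjusted p = 0.0392; 22.9% of all genes). Of the other HIF and ARNT family genes, *Hif3a* was not among the counts. *Arnt2*, a paralogue of *Arnt*, was called higher in LM9 versus HR1 (39.5 ± 11.3 against 64.5 ± 5.13 CPM, s.d., n = 3; log2 fold change 0.71, edgeR adjusted p = 0.027). The dioxin receptor gene *Ahr*, whose protein competes for ARNT, was called lower in both LM models, with 180.4 ± 76.1 CPM in HR1, 34.4 ± 4.22 CPM in LM1 and 27.9 ± 6.12 CPM in LM9 (s.d., n = 3), log2 fold changes of −2.39 and −2.69 and edgeR adjusted p = 0.000715 and 0.000399. *Ahrr*, the repressor of that receptor, was called lower as well, from 4.46 ± 4.38 CPM in HR1 to 0.221 ± 0.126 CPM in LM1 and 0.0303 ± 0.0262 CPM in LM9 (s.d., n = 3). In LM9 versus LM1 none of these 3 genes was called by edgeR. Of them *Arnt2* (log2 fold change 0.68, edgeR adjusted p = 0.0506) and *Ahrr* had an unadjusted p under 0.05, and both were called without HR1 replicate 1 (edgeR adjusted p = 0.0182 and 0.045). The calls of *Ahr*, *Ahrr* and *Arnt2* against HR1 held without that tumour, with log2 fold changes of −1.98 and −2.29 for *Ahr* in LM1 and LM9.

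Of 12 further genes for regulators of the stability or activity of the alpha subunits, 1 was called higher and 1 lower in LM1 versus HR1, against 16.7% and 18.7% of all genes. These were *Siah2*, a ubiquitin ligase for prolyl hydroxylases (0.61, edgeR adjusted p = 0.0043), and *Cited2*, which competes with HIF for its coactivators (−1.33, edgeR adjusted p = 0.000446). In LM9 versus HR1 2 were called higher, with the coactivator gene *Ep300* rising most (1.27, edgeR adjusted p = 0.00362), and 1 lower, *Fkbp8*, a chaperone that binds EGLN1 (−0.65, edgeR adjusted p = 0.00435), against 20.4% and 21.9% of all genes. In LM9 versus LM1 *Cited2* was called higher (1.23, edgeR adjusted p = 0.00152) and 2 genes lower, with *Siah2* falling most (−0.56, edgeR adjusted p = 0.0118), against 11.5% and 10.6% of all genes. The medians of the 12 genes were 0.28, −0.01 and −0.07, against −0.04, −0.05 and 0.00 over all genes. Without HR1 replicate 1, 1 was called higher and 2 lower in LM1 versus HR1 (26.9% and 26.0% of all genes), 3 higher and 2 lower in LM9 versus HR1 (27.9% and 27.8%) and 3 higher and 4 lower in LM9 versus LM1 (22.9% and 22.5%), and the medians were 0.06, −0.14 and −0.07.

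Among the counts were 18 HIF target genes outside the sensing genes, from glucose uptake (*Slc2a1*) and glycolysis to *Vegfa*, *Car9* and *Ero1l*. Of these, *Vegfa* and *Ero1l* are genes the study itself reported in these models. The study picked *Ero1l* partly from the most changed genes of these tumours, so its rise here is not independent of that choice. In LM1 versus HR1 6 of 18 were called higher and none lower, with *Ddit4*, an inhibitor of mTORC1, rising most (log2 fold change 2.38, edgeR adjusted p = 0.00208), and the median of the list was 0.16, where 16.7% of all genes were called higher. In LM9 versus HR1 11 of 18 were called higher and none lower, with *Ero1l* rising most (4.07, edgeR adjusted p = 4.7e-05) and a median of 1.22, where 20.4% of all genes were called higher. In LM9 versus LM1 11 of 18 were called higher and none lower, again with *Ero1l* rising most (2.97, edgeR adjusted p = 0.000535) and a median of 1.03, where 11.5% of all genes were called higher. The medians over all genes were −0.04, −0.05 and 0.00. In the same comparisons the log2 fold changes of *Hif1a* were 1.68, 1.33 and −0.35, of which the last was not called (edgeR adjusted p = 0.185). The median of the centred log2 CPM of the 18 genes was −1.10, −0.40 and −0.11 in HR1 replicates 1, 2 and 3, between −0.45 and −0.09 in the LM1 tumours and between 0.66 and 0.88 in the LM9 tumours, so that HR1 replicate 1, lowest in *Hif1a*, *Egln1* and *Egln3*, was also lowest in the targets. HR1 replicates 2 and 3 lay within the LM1 range. With HR1 replicate 1 left out, 7 of 18 targets were called higher and 4 lower in LM1 versus HR1 (26.9% of all genes were called higher and 26.0% lower), with a median of 0.03. The 4 were *Pdk1*, *Ankrd37*, *P4ha1* and *P4ha2*, with log2 fold changes between −1.14 and −0.56. In LM9 versus HR1, 11 were called higher and none lower without it (27.9% of all genes were called higher), with a median of 1.00. The counts in LM9 versus LM1 were 12 and none (22.9% of all genes were called higher), with a median of 1.03.

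**Figure D5:**
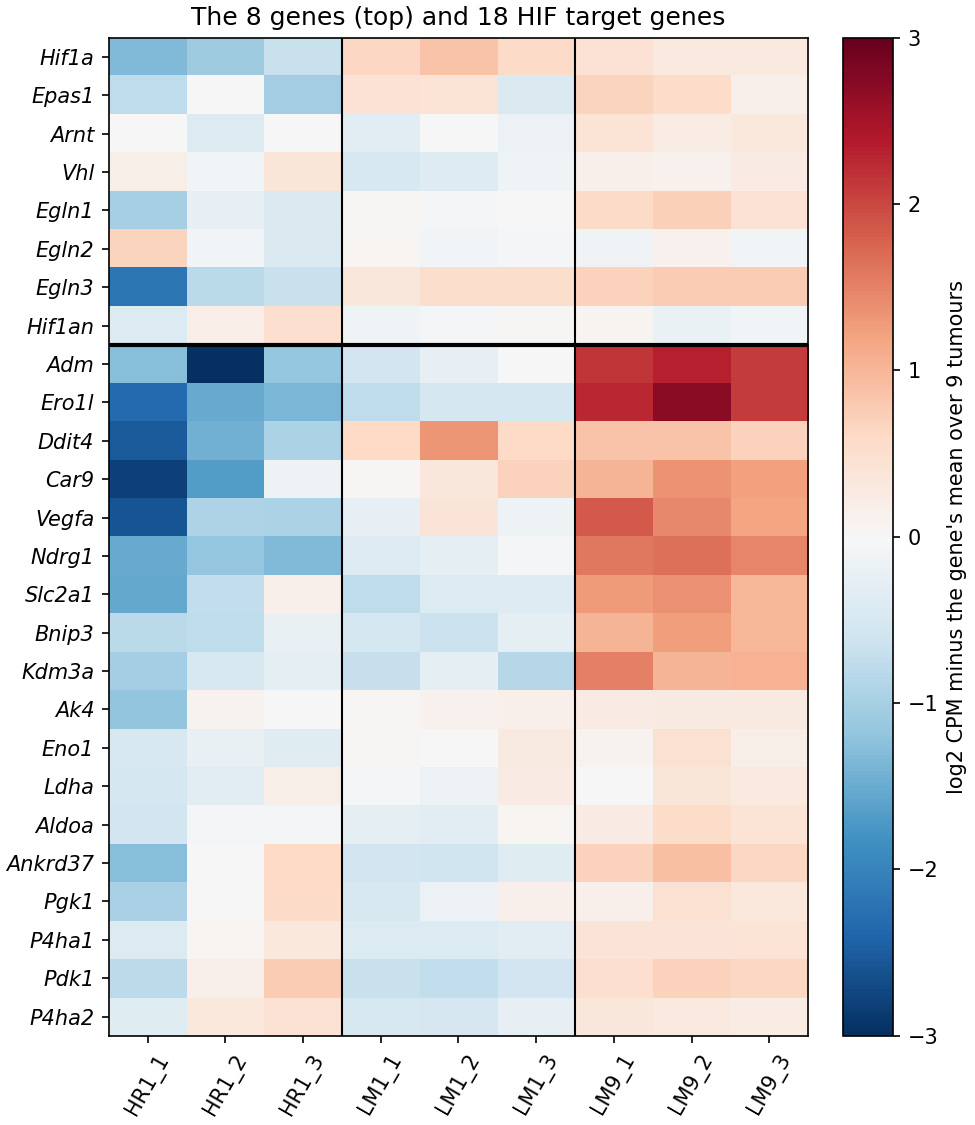
Log2 CPM of each gene minus its mean over the 9 tumours, as colour from −3 (blue) to 3 (red, ends of the scale), for the 8 sensing genes above the line and the 18 HIF target genes below it, ordered by LM minus HR1. The LM9 tumours are red for most targets, whereas the LM1 tumours stay near or below the mean for many of them.

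The genes whose profile over the 9 tumours was most like that of *Hif1a* and *Egln3*, the 2 sensing genes that ranged over at least 4-fold, were listed by the root mean square difference of centred log2 CPM among the 10531 genes averaging 5 CPM or more. For *Hif1a* these were *Sass6* (0.102), *Klhl11* (0.13) and *Atad2* (0.132), where the median gene differed by 0.855. For *Egln3* they were *Reep1* (0.127), *Mtbp* (0.138) and *Rasl12* (0.173), where the median gene differed by 1.02. None of these 6 lies on chromosome 12, where *Hif1a* and *Egln3* do.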

How the data were processed

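The 8 genes, the gene lists and the tests were chosen with earlier results of these data known. The authors aligned single-end 50 nt reads of stranded mRNA libraries to mm10 with STAR, counted 5′ ends on the exon union of each gene with qCount of QuasR, and deposited whole-number counts per gene, without normalization. The strand setting, annotation release and filter on low genes are not given in the sources used here. Entrez numbers were matched to symbols through RefSeq (14085 of 14108 genes). Positions and exon lengths came from GENCODE M21 on GRCm38, the build of mm10. Counts were normalized by TMM (factors 0.928 to 1.05) and fitted with edgeR 4.0.16 in R 4.3.3, with 1 quasi-likelihood model over the 3 groups and Benjamini-Hochberg adjustment over 14086 genes, threshold 0.05. Named genes were the 8 genes, *Nfib*, the largest called rise and fall of each list, and the 3 genes nearest in profile to a called gene ranging over a log2 of at least 2. The neighbours of the genes, *Arnt2*, *Ahr* and *Ahrr* beyond that rule, the cell type markers with values, and *Pdk1*, *Ankrd37*, *P4ha1* and *P4ha2* were named after their values were seen. Single values were compared by exact permutation tests in scipy 1.17.1. Alternatives used DESeq2 1.42.0 and limma-voom 3.58.1, other normalizations and filters, the replicate number as a block and each tumour left out. The gene lists and the genes near *Vhl* without HR1 replicate 1 were added after the data were seen. The test was checked on simulated data with large changes in few genes and no outlying tumour, which does not bear on calls near the threshold. Tumours of a model differed far beyond sampling noise. The labels do not say what tumours of the same number share, and p-values measure only the spread between these tumours. PCR duplicates in these libraries were not assessed.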

Additional observations from a re-analysis of the deposited data

Results flagged for a closer look

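The log2 fold change of *Vhl* between LM9 and LM1 was 0.50 (standard error 0.15, edgeR adjusted p = 0.0468), with LM9 tumours between 69.7 and 75.8 CPM and LM1 tumours between 45.8 and 58.6 CPM. It is listed because the change of *Vhl* against HR1 differed between the 2 metastasis-derived models by this test of the difference itself. The call held in 9 of 17 alternatives and was lost without any of the 6 LM tumours (edgeR adjusted p up to 0.168).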

How the results depend on the processing

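*Hif1a* and *Egln3* stayed called in both comparisons with HR1, and *Egln1* in LM9 versus HR1, under all 17 alternatives. With only the 6 tumours compared, 3008 genes were called in LM1 versus HR1 (22.0% of those tested) and 7709 in LM9 versus LM1 (56.3%), with 3 of the 8 genes in LM9 versus HR1 (31.2% of all genes) and 5 in LM9 versus LM1. In LM9 versus LM1, 0 of the 8 genes were called with RLE size factors or library size only (21.9% and 22.2% of all genes), 2 with a filter of 1 CPM in 3 tumours or limma-voom (24.8% and 24.6%), and 3 with DESeq2 (30.6%). Leaving out 1 tumour gave 4928 to 7902 calls for LM1 and LM9 together versus HR1, 3121 to 7453 in LM1 versus HR1, 3768 to 7862 in LM9 versus HR1 and 1150 to 6413 in LM9 versus LM1, and 3 to 4, 2 to 5, 3 to 5 and 0 to 3 of the 8 genes, where 35.0% to 56.0%, 22.1% to 52.8%, 26.7% to 55.7% and 8.16% to 45.5% of all genes were called. The log2 ratio of *Hif1a* to *Epas1* in LM9 versus HR1 ranged from −0.027 (without HR1 replicate 2) to 0.695.

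Signs turned for values near 0 and for *Egln2* and *Hif1an*. *Arnt* in LM1 versus HR1 gave 0.0517 with library size only. *Vhl* in LM9 versus HR1 gave −0.0101 with RLE, −0.01 with DESeq2, −0.0128 with 1 CPM in 3 tumours, and −0.0049 with only the 6 tumours compared. *Egln2* in LM9 versus LM1 gave −3e-04 with RLE and DESeq2 and −0.0554 with library size only. Leaving out 1 tumour gave ranges of −0.151 to 0.0511 for *Arnt* in LM1 versus HR1, −0.11 to 0.12 for *Vhl* in LM9 versus HR1, and, for *Egln2*, −0.36 to 0.23 in LM1 and LM9 together and in LM9 versus HR1, −0.37 to 0.23 in LM1 versus HR1 and −0.0981 to 0.0559 in LM9 versus LM1. For *Hif1an* the ranges were −0.397 to 0.0362 in LM1 and LM9 together versus HR1, −0.386 to 0.045 in LM1 versus HR1, −0.408 to 0.0275 in LM9 versus HR1 and −0.0946 to 0.0228 in LM9 versus LM1. The cause of these changes was not tested.

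Deviations from the model's mean correlated between −0.117 and 0.162 for tumours of the same number. For tumours of different numbers the correlations lay between −0.198 and 0.203. With deviations taken from a mean of 3 tumours a model, these values cannot decide whether the numbers pair the tumours. With the replicate number as a block, 5234, 4204, 5078 and 2295 genes were called in the 4 comparisons, *Arnt* in LM9 versus HR1 had a log2 fold change of 0.45 (edgeR adjusted p = 0.0796) and *Epas1* in LM1 and LM9 together versus HR1 0.88 (edgeR adjusted p = 0.0316).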
